A study of Mus musculus with 6 samples.

Results

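The 10 genes described here, Pou5f1, Nanog, Sox2, Sall4, Lin28a, Utf1, Dppa2, Dppa3, Dppa4 and Dppa5a, are genes of pluripotent cells that fetal germ cells also use. They were taken as all probe sets of the array whose platform annotation gives 1 of these symbols, which gave 15 of 45101 probe sets and 10 of 18193 genes. The data are Affymetrix signals of mouse gonads, all from the inbred strain C57BL/6. Each group was 1 array of whole ovary or whole testis, taken at 15.5 days postcoitum (fetal ovary and fetal testis), at 1 day after birth (neonatal ovary and neonatal testis) or at 10 weeks (adult ovary and adult testis). The labels name no treatment or genotype beyond the strain, and how many animals were pooled for an array is not known here. Groups of 1 array leave the spread between animals unmeasured, so no test was run. The number of arrays limits the precision.

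Pou5f1 (OCT4), Sox2 and Nanog encode the transcription factors that hold embryonic stem cells in the undifferentiated state, and primordial germ cells express them again. In the fetal ovary the germ cells shut this program down as they enter meiosis. In the fetal testis they keep it somewhat longer, while they stop dividing and turn towards the spermatogonial fate. Dppa3 (Stella, PGC7) takes a separate path, because growing oocytes make it again and store it for the embryo, where it protects the maternal genome from loss of DNA methylation.

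Signals were scaled to a common trimmed mean, and a floor of 75.3, the median of all scaled signals, was set under them. Signals at or under the floor have no order, so a ratio to one of them is given as "at least". A call means that the signals of a gene on a pair of arrays differed 4-fold or more. Members above the floor numbered 9 of 10 in fetal testis, 7 in fetal ovary, 7 in neonatal testis, 5 in neonatal ovary, 5 in adult ovary and 4 in adult testis. Nanog was not above the floor on any of the 6 arrays.

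The arrays matched their labelled sex. Xist, which the inactive X chromosome makes, had 1950 to 4085 on the 3 ovary arrays and 64.7 to 139.6 on the testis arrays, and Eif2s3y, a Y-linked gene, had 757 to 1091 in testis and was under the floor in ovary. Of 10 measured genes that mark germ cells of both sexes, 9 or 10 were above the floor on every array except adult ovary, where 5 were. The arrays differed in the ratio of 3' to 5' signal for Gapdh, a measure of RNA integrity, which ranged from 1.32 to 1.45 on 4 arrays and was higher in neonatal ovary (3.12) and adult testis (2.36). The same ratio for Actb had another order, with 3.78 in fetal ovary, 3.28 in neonatal ovary, 2.91 to 3.14 on 3 arrays and the lowest value, 1.81, in adult testis. Because whole gonads were measured, fewer germ cells and less RNA per germ cell cannot be told apart.

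**Figure D1:**
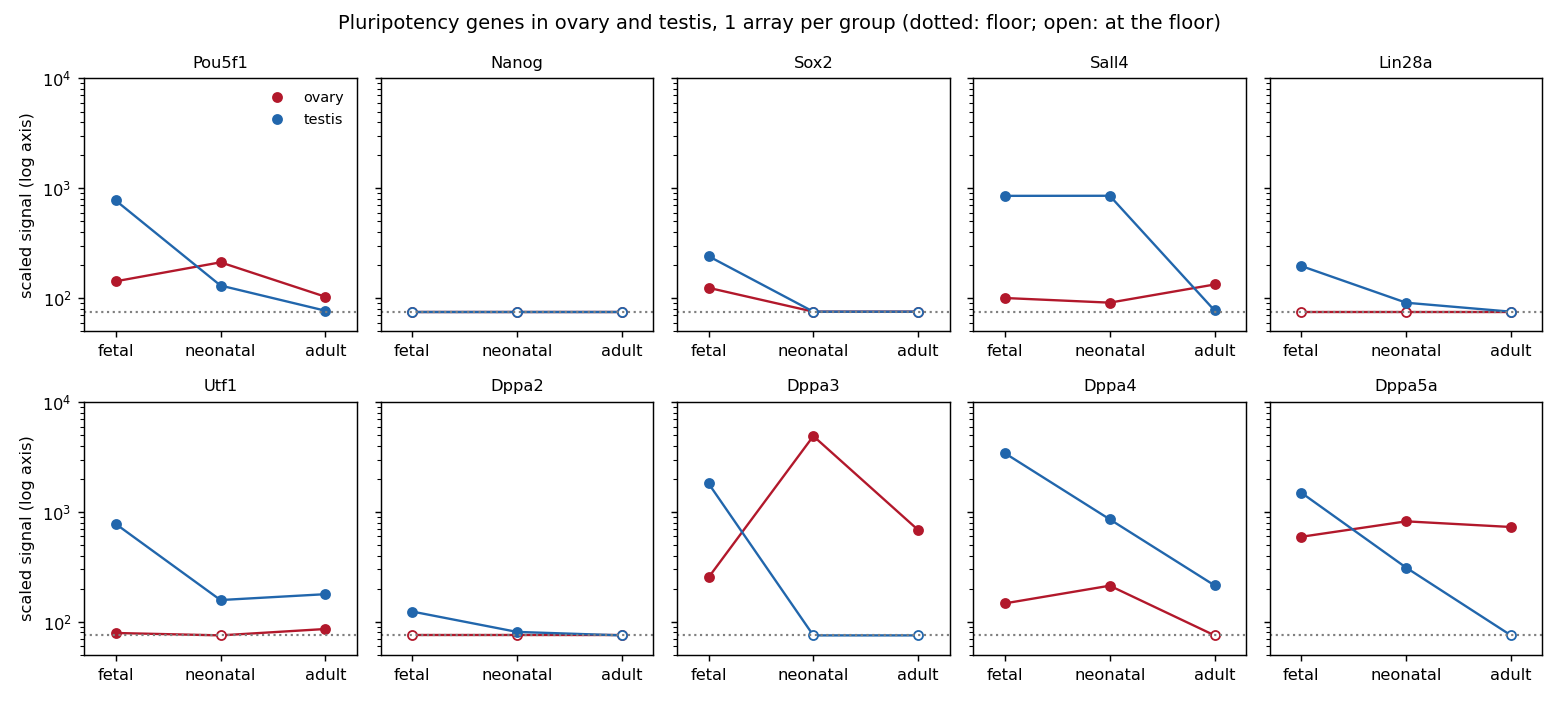
Scaled signal (log axis) of the 10 genes on the 6 arrays by age, ovary in red and testis in blue, 1 point per array, with the floor of 75.3 dotted and signals at or under it drawn open on it. Pou5f1, Utf1, Dppa4 and Dppa5a were highest in fetal testis, Sall4 was as high in neonatal as in fetal testis, and Dppa3 was highest in neonatal ovary.

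Fetal ovary against fetal testis asks whether the pluripotency program differs between germ cells that have entered meiosis and germ cells that have not. Dppa4, Utf1, Sall4, Dppa3 and Pou5f1 were lower in fetal ovary by 23.3-fold, 9.84-fold, 8.51-fold, 7.18-fold and 5.44-fold. These are 5 of the 10 genes, and 0.44% of all 18193 genes were lower by 4-fold or more in this comparison. No member was higher in fetal ovary, where 0.192% of all genes were. The other 5 genes were not called. Over the 10 genes, with signals under the floor set to it, the median log2 ratio was -1.91, against 0 over all genes. It rests in part on Lin28a, which was at the floor in fetal ovary, so it is a bound. This comparison, the loss in testis and the rise of Dppa3 in ovary were in view when the genes were chosen. Counts and ranks of members in them are therefore descriptions.

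Among the core transcription factors, Pou5f1 had scaled signals of 142 in fetal ovary, 212 in neonatal ovary, 103 in adult ovary, 775 in fetal testis, 130 in neonatal testis and 76.9 in adult testis. Fetal testis stood above the other 5 arrays, which all lay between the floor and 212. Sox2, the partner of OCT4 on DNA, had 124 in fetal ovary and 241 in fetal testis and did not exceed the floor on the 4 later arrays. Its fetal signals differed by 1.94-fold, under the limit of 4. Nanog was at the floor throughout, so neither its presence nor its loss could be read at this sensitivity.

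Sall4, a zinc finger factor that works with OCT4 in stem cells and stays on in undifferentiated spermatogonia, had 100.3 in fetal ovary, 91.0 in neonatal ovary, 133 in adult ovary, 853 in fetal testis, 855 in neonatal testis and 77.2 in adult testis. Fetal and neonatal testis stood together, and the other 4 arrays were low. Its other probe set showed the same division at a lower level, with 94.1 in fetal testis and 118 in neonatal testis and the other 4 arrays at the floor. SALL4 recruits the NuRD complex, which removes histone acetylation. None of the 12 NuRD genes differed by 4-fold between fetal ovary and fetal testis, and their log2 ratios lay between -0.37 and 0.19.

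Utf1, a chromatin-associated coactivator of stem cells that was named for their undifferentiated state, had 79.2 in fetal ovary, 86.1 in adult ovary, 779 in fetal testis, 158 in neonatal testis and 179 in adult testis, and did not exceed the floor in neonatal ovary. Fetal testis was again the highest array, and the neonatal and adult testis arrays lay next to each other. A further probe set of Utf1 was above the floor in fetal testis alone, at 102, and the last one was at the floor on all 6 arrays.

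Pou5f1 and Utf1 shared the fall from fetal to neonatal testis and the low fetal ovary signal, and their promoters are shown because OCT4 and SOX2 are known to act on genes of this program. RefSeq promoters (build GRCm38.p6) were matched for 5 of the 10 genes, Pou5f1, Nanog, Sox2, Lin28a and Utf1. Pou5f1 and Nanog have 2 starts each in that table, and the 250 bases before the first start are printed for Pou5f1 (chr17:35505782-35506031, + strand), Utf1 (chr7:139943606-139943855, + strand) and, for its paired motifs, Nanog (chr6:122707239-122707488, + strand). Capitals mark matches on either strand to the octamer core ATGCAAA, the SOX motif ACAATG, the GC box GGGCGG, the nuclear receptor site AGGTCA and the E-box CACGTG.
Pou5f1: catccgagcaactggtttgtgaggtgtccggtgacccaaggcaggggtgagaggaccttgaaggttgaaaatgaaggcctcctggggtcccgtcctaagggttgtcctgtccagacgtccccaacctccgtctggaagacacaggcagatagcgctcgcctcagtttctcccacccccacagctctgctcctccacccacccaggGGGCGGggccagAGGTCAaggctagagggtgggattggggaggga
Utf1: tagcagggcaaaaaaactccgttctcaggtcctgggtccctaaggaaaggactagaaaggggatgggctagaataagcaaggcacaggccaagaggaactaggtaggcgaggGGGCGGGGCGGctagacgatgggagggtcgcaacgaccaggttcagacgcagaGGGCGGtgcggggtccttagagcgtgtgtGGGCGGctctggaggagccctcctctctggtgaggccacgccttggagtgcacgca
Nanog: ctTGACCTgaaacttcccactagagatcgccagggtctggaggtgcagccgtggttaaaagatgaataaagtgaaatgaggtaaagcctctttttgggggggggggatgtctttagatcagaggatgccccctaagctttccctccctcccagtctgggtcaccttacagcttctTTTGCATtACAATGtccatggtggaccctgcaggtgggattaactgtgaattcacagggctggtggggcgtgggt

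Pou5f1 held 1 GC box and 1 receptor site in this window, and Utf1 held 4 GC boxes, of which the first pair overlaps. Neither of these windows held the octamer core or the SOX motif, but the window of the other Pou5f1 start (chr17:35508557-35508806, + strand) held 1 SOX motif and none of the other motifs. Nanog held both side by side, together with 1 receptor site. Among 32817 RefSeq windows of the same length, 4.13% held the octamer core, 10.7% the SOX motif, 32.7% the GC box, 14.0% the receptor site and 6.02% the E-box. Sox2 held 1 octamer core, 2 GC boxes and 1 receptor site, and Lin28a held 1 SOX motif. The observed over expected number of CpG dinucleotides was 0.833 for Sox2, 0.638 for Utf1, 0.336 for Lin28a, 0.334 for Pou5f1 and 0.182 for Nanog, against a median of 0.373 over all windows. At the other start it was 0.467 for Pou5f1, on the other side of that median, and 0.104 for Nanog. A match is a description of letters, and nothing in these arrays measures binding or methylation there.

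Lin28a, the RNA-binding protein that blocks maturation of let-7 microRNAs, had 196 in fetal testis and 90.8 in neonatal testis but stayed under the floor on the other 4 arrays. It was at least 2.60-fold higher in fetal testis than in fetal ovary, a lower bound, so a 4-fold difference can be neither read nor denied. Its other probe set was at the floor on all arrays. Of 11 measured genes of the LIN28 and let-7 pathway, none was called between fetal ovary and fetal testis. Hmga2, a chromatin protein that let-7 represses, fell from 1239 in fetal to 101 in neonatal testis (12.3-fold) and from 2394 in fetal to 355 in neonatal ovary (6.74-fold). Igf2bp1, an RNA-binding protein that let-7 also represses, fell 5.14-fold between the same ovary arrays and 1.60-fold, under the limit, in testis. No other gene of the list was called between these ages in either sex. Trim71 rose 3.13-fold in ovary and 1.41-fold in testis, and Igf2bp3 fell 1.87-fold and 1.55-fold. Lin28a itself was at the floor in fetal and neonatal ovary.

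Dppa2 and Dppa4 encode partner proteins that bind DNA and prime developmental genes in stem cells, and they are neighbours on chromosome 16. Their signals differed in range. Dppa4 had 147 in fetal ovary, 213 in neonatal ovary, 3426 in fetal testis, 857 in neonatal testis and 215 in adult testis, and did not exceed the floor in adult ovary. Fetal testis stood above all other arrays and neonatal testis above the remaining 4. Between the fetal gonads only 6 of 18193 genes were lower in ovary by a larger ratio than Dppa4. Dppa2 had 124 in fetal testis and 81.0 in neonatal testis but stayed under the floor on the other 4 arrays. Its highest signal lay close to the floor, so no ratio could reach 4. With the floor at the 25th percentile its log2 ratio of fetal ovary over fetal testis was -2.06, past the limit. Its other probe set had 94.5 in fetal testis and was at the floor elsewhere.

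Dppa5a, an RNA-binding protein with a KH domain, had 595 in fetal ovary, 822 in neonatal ovary, 730 in adult ovary, 1496 in fetal testis and 311 in neonatal testis, and did not exceed the floor in adult testis. The 3 ovary arrays lay close together, within 1.38-fold of fetal ovary, whereas the testis arrays fell at each age. It was 2.52-fold lower in the fetal ovary than in the testis of that age, and 2.64-fold higher in the ovary at birth, both under the limit.

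The spread of a log2 ratio between probe sets of the same gene, a technical measure that covers no variation between animals, was 0.18 (robust SD over 4721 genes) in the fetal comparison. It was larger in every other comparison. With adult testis it was 0.63 against neonatal testis, 0.65 against fetal testis and 0.68 for adult ovary. In the fetal comparison each of the 4 other scalings also gave 5 members lower, and a floor at the 75th percentile left 2, Dppa4 and Dppa3. Other lists measured on the same arrays divided differently. Of 22 other pluripotency factors, none was called in either direction, with log2 ratios between -1.44 (Tex19.1) and 0.55. Of 10 genes of germ cells of both sexes, Gtsf1, a piRNA pathway protein, was 6.03-fold lower in fetal ovary and the other 9 were not called, with a median log2 ratio of -0.23. Ddx4 and Dazl, RNA-binding proteins of all germ cells, had 1172 and 1916 in fetal ovary and 1610 and 1222 in fetal testis, ratios of 0.728 and 1.57. Of 7 genes of the fetal male germ cell, Dnmt3l, Piwil4, Tdrd9 and Morc1 did not exceed the floor in fetal ovary. Their signals there were lower by at least 6.87-fold (Dnmt3l), 7.93-fold (Piwil4), 10.2-fold (Tdrd9) and 12.9-fold (Morc1). Mov10l1, Tdrd5 and Lefty1 of this list were not called, at log2 ratios of 0.07, -1.71 and -0.70. At birth Tdrd9 had 1066 in ovary and 292 in testis, Mov10l1 962 and 297, and Tdrd5 458 and 178. Morc1 had 320 and 367 and Lefty1 173 and 155, while Dnmt3l and Piwil4 did not exceed the floor in neonatal ovary. Of 14 genes of meiotic prophase 10 were higher in fetal ovary.

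Nodal signalling, which sustains pluripotency genes in fetal male germ cells, was close to the floor for its ligand side. Nodal had 95.6 in fetal testis, 81.3 in adult testis and 75.9 in neonatal ovary and did not exceed the floor on the other 3 arrays. Its coreceptor Tdgf1 exceeded the floor in adult ovary alone, at 92.6, and the inhibitor Lefty2 in fetal testis alone, at 166. None of the 14 measured Nodal pathway genes was called between the fetal gonads. For Lefty2, at the floor in fetal ovary, the ratio is a lower bound, so a 4-fold difference can be neither read nor denied. Among 13 measured primordial germ cell genes Dnd1, an RNA-binding protein that protects germ cell transcripts, was 7.16-fold lower in fetal ovary, with 160 against 1143, and the other 12 were not called.

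**Figure D2:**
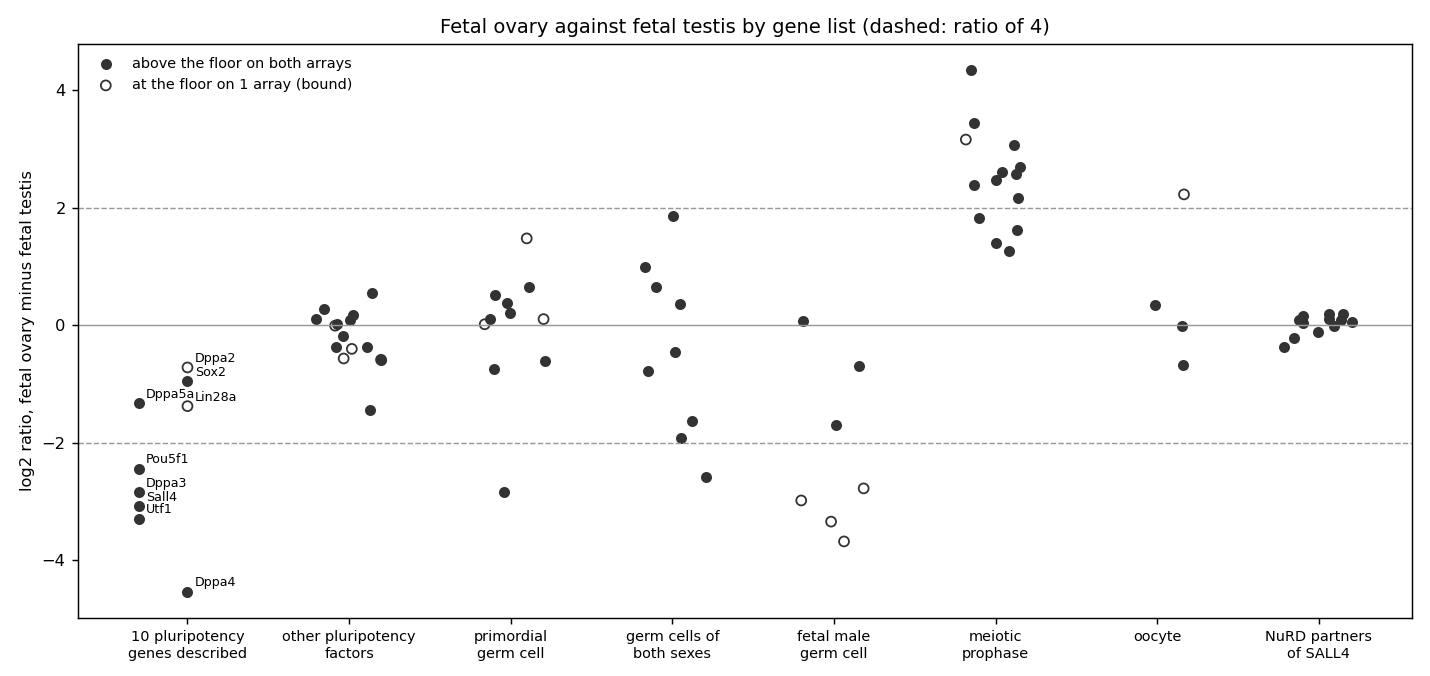
Log2 ratio of fetal ovary over fetal testis for the genes of 8 lists, 1 point per gene above the floor on at least 1 of the 2 arrays, open where the other array was at the floor. Dppa4, Utf1, Sall4, Dppa3 and Pou5f1 lay below -2, as did Dnd1, Gtsf1 and 4 genes of the fetal male germ cell, while 10 genes of meiotic prophase and Figla, an oocyte factor, lay above 2.

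Neonatal against fetal testis asks when the program is lost on the male side. Dppa3, Pou5f1, Utf1 and Dppa5a fell, Dppa3 by at least 24.2-fold and the others by 5.95-fold, 4.93-fold and 4.81-fold. These are 4 of the 10 genes, against 0.44% of all genes lower and 0.357% higher. Dppa4 had a ratio of 3.997 in the same direction, just short of the limit, and passed it with signals as deposited, quantile normalization and scaling to hybridization controls. Sall4 had a ratio of 1.00. Over the 10 genes, with signals under the floor set to it, the median log2 ratio was -1.84, against 0 over all genes. It rests in part on Sox2, which was at the floor in neonatal testis, so it is a bound. Of all genes, 1 was lower by a larger ratio than Dppa3.

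Of the 10 genes of germ cells of both sexes, none was called between neonatal and fetal testis. Their log2 ratios lay between -1.05 and 0.40, and Ddx4 had 1206 against 1610 and Dazl 1615 against 1222. Among spermatogonial genes Dmrt1, a regulator of male germ and Sertoli cells, rose 4.91-fold to 2945 and the other 12 measured were not called. Among the fetal male germ cell genes Dnmt3l and Piwil4 fell by 4.87-fold and 4.02-fold, and Dnd1 of the primordial germ cell list fell 4.13-fold. Of the other pluripotency factors Tbx3 was 4.74-fold lower and Nr0b1, which Sertoli and Leydig cells also express, 4.92-fold higher. Of 9 duct and oviduct epithelium genes, 3 were lower in neonatal testis, and the part of other tissue in these ratios was not tested.

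Adult testis holds spermatids as its most abundant germ cells, and the 10 spermatid genes were all above the floor there. Against neonatal testis, Sall4 fell 11.1-fold and Dppa5a at least 4.14-fold, 2 of the 10 genes, where 10.3% of all genes were lower and 10.7% higher. The members' share is close to this background, but only Sall4, Dppa4 and Dppa5a could be called lower at this floor. They had 855, 857 and 311 in neonatal testis, and no other member had 4 times the floor there. Dppa4 had a ratio of 3.99 in the same direction. Scaling to the hybridization controls left Sall4 alone past the limit, put Dppa5a at a log2 ratio of -0.87 and turned Pou5f1, which was not called, from -0.76 to 0.56. Signals as deposited also left Sall4 alone. Of 10 germ cell genes, 4 rose and none fell, with Mael at 4.98-fold and Rnf17 at 20.1-fold.

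From fetal to adult testis, Dppa3, Dppa5a, Dppa4, Sall4, Pou5f1 and Utf1 fell. The ratio was at least 24.2-fold for Dppa3 and at least 19.9-fold for Dppa5a, and it was 15.96-fold for Dppa4, 11.1-fold for Sall4, 10.1-fold for Pou5f1 and 4.36-fold for Utf1. These are 6 of the 10 genes, where 11.1% of all genes were lower and 10.3% higher. Utf1 no longer passed the limit with quantile normalization (log2 ratio of -1.84) or with the hybridization controls (-0.99). With the floor at the 25th percentile Sox2, Lin28a and Dppa2 passed it as well, at log2 ratios of -3.44, -2.54 and -2.49. That setting called 9 of the 10 genes lower, where 14.3% of all genes were lower. Ddx4 was 2.60-fold higher and Dazl 1.45-fold higher in adult than in fetal testis. Klf4, a stem cell factor that spermatids also make at high level, rose 7.18-fold to 2438, and Tbx3 was at the floor in adult testis and at least 5.94-fold lower.

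**Figure D3:**
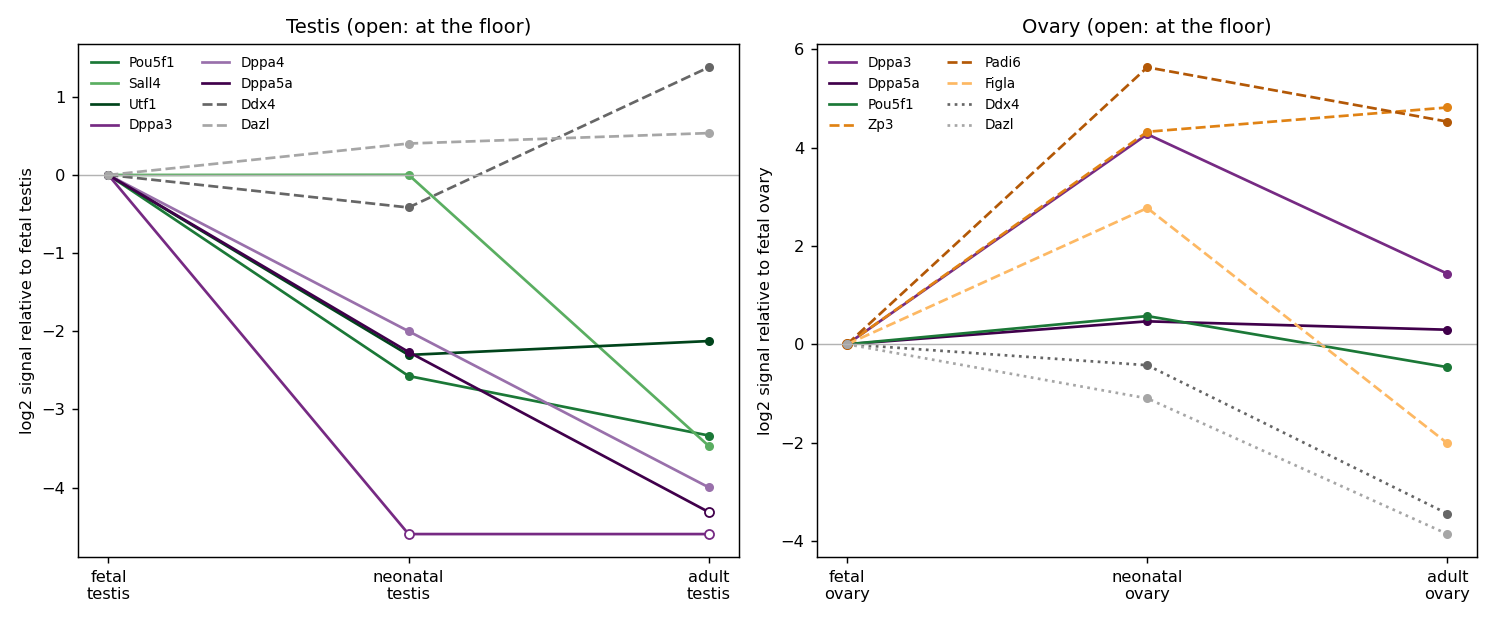
Log2 signal relative to the fetal array of the same sex for members of the group (solid lines) and for germ cell and oocyte genes (dashed or dotted lines), 1 array per point, drawn open where the signal was at the floor. In testis, Dppa3, Pou5f1, Utf1, Dppa5a and Dppa4 were lower at birth while Sall4 was level with fetal testis, and Ddx4 and Dazl stayed within 0.5 of 0 at that age. In ovary, Dppa3 rose with Zp3, Padi6 and Figla, whose rise for Zp3 and Padi6 is a lower bound, and then fell.

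Neonatal against fetal ovary asks the same on the female side. It called 1 of the 10 genes, and that 1 rose, where 0.759% of all genes were higher and 0.231% lower. The gene was Dppa3. Only Dppa5a, with 595 in fetal ovary, could be called lower at this floor. No other member had more than 253 there, too close to the floor for a fall to reach the limit. The lack of calls downwards therefore does not show whether the program was kept or lost in ovary. Pou5f1, Dppa4 and Dppa5a had ratios of 1.49, 1.45 and 1.38, and Sall4 of 0.907. Sox2 had 124 in fetal ovary and did not exceed the floor in neonatal ovary, so the size of its fall is a lower bound. It passed the limit downwards with the floor at the 25th percentile (log2 ratio of -2.49) and with no floor and 16 added (-2.21). Between adult and fetal ovary no member was called, where 2.02% of all genes were higher and 1.68% lower. Here too only Dppa5a could be called lower at the main floor. With the floor at the 25th percentile, however, Sox2 and Dppa4 passed the limit downwards, at log2 ratios of -2.49 and -2.05. Over the same interval Ddx4 and Dazl were 10.9-fold and 14.6-fold lower in adult ovary, which holds few oocytes beside its somatic cells.

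Dppa3 had scaled signals of 253 in fetal ovary, 4911 in neonatal ovary, 685 in adult ovary and 1819 in fetal testis, but stayed under the floor in neonatal and adult testis. Neonatal ovary was the highest array and fetal testis the next. From fetal to neonatal ovary Dppa3 rose 19.4-fold, and 10 genes of 18193 had a larger rise. From fetal to neonatal testis it fell by at least 24.2-fold. At birth it was at least 65.2-fold higher in ovary than in testis. The array has 1 probe set for Dppa3, and the reference gene table lists 1 pseudogene of it, whose part in the signal was not tested.

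Oocyte genes moved with Dppa3 in the ovary. Of 18 measured oocyte genes 12 rose from fetal to neonatal ovary and none fell, with a median log2 ratio of 3.02 against 0 over all genes. Padi6 and Nlrp5, proteins of the maternal store of the egg, rose at least 49.8-fold and at least 32.5-fold. Zp3 and Zp2, coat proteins of the egg, rose at least 20.0-fold and at least 26.1-fold. Nobox, an oocyte transcription factor, rose at least 20.7-fold. None of the 18 was called between neonatal and fetal testis, where Dppa3 fell. Among the other pluripotency factors Tcl1, a cofactor of AKT that oocytes also store, rose 8.50-fold, from 86.3 to 733, and the other 21 were not called. The rise was not confined to oocyte genes. Of the germ cells of both sexes list, Gtsf1 rose 16.3-fold and Piwil2 5.15-fold, Tex101 fell 14.6-fold and the rest were not called. Of the fetal male germ cell list, Tdrd9 rose at least 14.2-fold, Morc1 at least 4.26-fold and Tdrd5 4.06-fold, and the rest were not called.

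**Figure D4:**
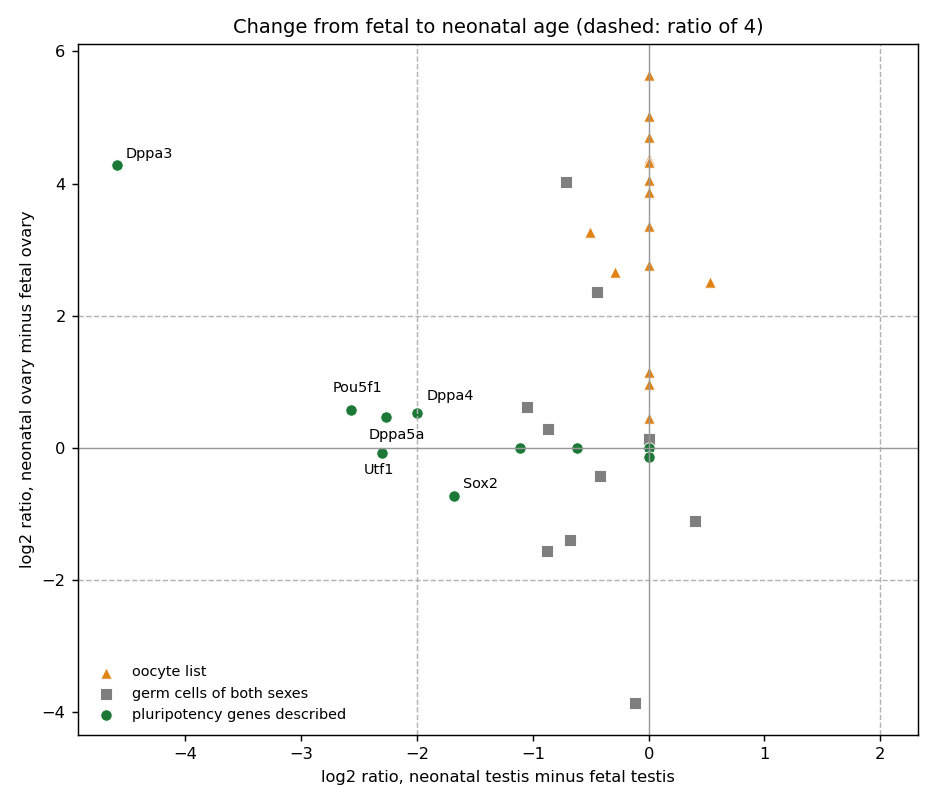
Log2 ratio of neonatal over fetal ovary (vertical axis) against that of neonatal over fetal testis (horizontal axis) for the 10 pluripotency genes, 18 oocyte genes and 10 germ cell genes, 1 point per gene, with genes at the floor on both arrays drawn at 0. Dppa3 lay at 4.28 in ovary and -4.59 in testis, and Pou5f1, Utf1 and Dppa5a were past the limit in testis and near 0 in ovary. For Utf1 the floor sets the ovary value, because its signal was 79.2 in fetal ovary and under the floor in neonatal ovary, so a larger fall could not show.

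Duct genes were also highest in neonatal ovary. All 9 measured duct and oviduct epithelium genes were above the floor there, and their summed signal was 21168, against 9035 in fetal ovary, 3334 in adult ovary and 1479 to 7766 in the 3 testis arrays. All 9 exceeded their neonatal testis signal by 4-fold or more. Of these 9 genes, 1 was called higher in neonatal than in fetal ovary, Ovgp1, which the oviduct secretes. The defining genes Krt8 and Krt18 had 1976 and 2218 in fetal ovary, where Dppa3 had 253, and 4565 and 4779 in neonatal ovary. The part of duct tissue, and of RNA quality, in the Dppa3 signal was not tested.

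From neonatal to adult ovary Dppa3 fell 7.17-fold, the 1 member called of 10, where 1.89% of all genes were lower and 1.48% higher. The oocyte list divided in this interval. Figla, Lhx8 and Nobox, transcription factors of early oocytes, fell 27.6-fold, 8.48-fold and 5.89-fold. Oosp1, a secreted oocyte protein, and Bcl2l10 rose 15.0-fold and 6.59-fold, and the other 13 oocyte genes were not called. Zp3 had 1509 and 2126, and Padi6 3747 and 1742. Germ cell genes fell for 6 of 10, with Ddx4 at 8.13-fold and Dazl at 6.79-fold. Dppa3 was still 2.70-fold higher in adult than in fetal ovary, under the limit, while Dppa5a was level over the 3 ovary arrays.

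Between the sexes the order of Dppa3 turned around after the fetal stage. In neonatal gonads Sall4 and Dppa4 were lower in ovary by 9.40-fold and 4.02-fold and Dppa3 was higher, 3 of the 10 genes, where 0.962% of all genes were lower and 1.4% higher. The call of Dppa4 was lost with the hybridization controls, at a log2 ratio of -1.53. In adult gonads Dppa5a and Dppa3 were higher in ovary by at least 9.70-fold and at least 9.10-fold, 2 of the 10 genes, where 11.9% of all genes were higher and 10.9% lower. With the hybridization controls, under which 4.91% of all genes were higher and 17.7% lower, Dppa4 and Utf1 were called lower in adult ovary as well. The 9 comparisons share arrays, so their counts are not independent of each other.

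The genes nearest in profile were found by the mean absolute difference of log2 signal over the 6 arrays, each profile taken relative to its own highest signal, among genes with a highest signal within 2-fold. For Utf1 the nearest was Piwil4, a piRNA protein of fetal male germ cells, at 0.34, with 597 in fetal testis and 148 in neonatal testis and the floor elsewhere, and Dnmt3l was the third at 0.52. Piwil4 and Dnd1 were also among the 5 nearest of Pou5f1, at 0.44 and 0.46, after Col9a3, Nts and Sstr4. For Sall4 the nearest was Tacr3, a neurokinin receptor, at 0.21. For Dppa5a the nearest were Stbd1 at 0.40 and Jag1 at 0.47. For Dppa3 the nearest 3 were Krt19, Upk3b and Krt18, genes of epithelium, at 0.98 to 1.10, and for Dppa4 the nearest was Pdlim3 at 1.16, so no gene of similar brightness followed either of them closely. Profiles of Sox2, Lin28a and Dppa2 rest mostly on arrays at the floor, so many genes lie near them.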

How the data were processed

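The authors deposited 1 linear intensity per probe set and array for 6 arrays. Per the submitters' processing notes GCOS version 1 was used, in a role not given in the sources used here, and neither are background correction, probe summary and scaling. The 2% trimmed means of the deposited intensities ranged from 256 to 353, so each array was multiplied by 1 factor (0.913 to 1.26) to the same trimmed mean, floored at 75.3 and compared by ratios. Of 45101 probe sets, 34945 had 1 symbol in the platform annotation, 932 had several and 9211 were unnamed. The 64 control probe sets, some of them named, were not used as genes. A gene was represented by the probe set brightest on average over the arrays (18193 genes, 18032 matched to the RefSeq table of GRCm38.p6). Members, lists and comparisons were chosen with earlier results of these data known. Named genes are the members, list genes called in the comparison described and a few defining genes chosen after their values were seen, and the 5 nearest profiles of each member. List genes without a probe set of that symbol, such as Nanos2 and Nanos3, are not analysed here. Further lists (Sertoli, granulosa, Leydig, blood and macrophage) served as tissue checks. Steps were tested on simulated data with known ratios. Python 3.11.15, numpy 2.4.6, pandas 2.3.3 and scipy 1.17.1 were used.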

Additional observations from a re-analysis of the deposited data

Results flagged for a closer look

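Dppa3 passed the limit of 4 in opposite directions in comparisons of the same kind, and the difference between them was not tested, because each group has 1 array. Between neonatal and fetal gonads its log2 ratio was 4.28 in ovary and -4.59 in testis, the latter against a signal at the floor. Between ovary and testis it was -2.84 in fetal gonads, 6.03 in neonatal gonads and 3.19 in adult gonads.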

How the results depend on the processing

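No paired analysis was possible because each group has 1 array. Counts of members called kept within 1.5 times of the main count in 75 of 99 repeats over 9 comparisons and 11 alternatives, and no called ratio of a member changed sign. Percentages in brackets give the share of all genes lower under the same setting, or higher where so named. Fetal ovary against fetal testis gave 5 members, but 2 under a 75th percentile floor (0.121%) and 3 at a ratio of 8 (0.143%). Neonatal against fetal testis gave 4, or 2 with that floor (0.0715%), 7 at a ratio of 2 (3.42%) and 1 at a ratio of 8 (0.0495%). Neonatal against fetal ovary gave 1, or 2 under a 25th percentile floor (1.59% higher, 0.456% lower) and with no floor and 16 added (1.24% higher, 0.346% lower). Adult against neonatal ovary gave 1, or 2 with each of these settings (3.42% and 2.84%). It gave 3 at a ratio of 2 (6.9%) and 0 at a ratio of 8 (0.489%). Adult against neonatal testis gave 2, or 0 under a 75th percentile floor (4.07%) and 1 at a ratio of 8 (3.25%). It also gave 1 with the hybridization controls (2.69%) and 1 with signals as deposited (8.1%). Adult against fetal ovary gave 0, or 2 under a 25th percentile floor (2.95%), 1 with no floor (2.43%) and 1 at a ratio of 2 (6.56% higher). Adult against fetal testis gave 6, or 3 under a 75th percentile floor (3.79%). It gave 9 under a 25th percentile floor (14.3%) and 9 with no floor and 16 added (12.8%), just within 1.5 times. Neonatal ovary against neonatal testis gave 3, or 1 under a 75th percentile floor (0.396% higher) and 5 at a ratio of 2 (5.8% higher, 3.8% lower). Adult ovary against adult testis gave 2, or 0 under a 75th percentile floor (4.33% higher, 6.57% lower). It gave 4 at a ratio of 2 (26.9% higher, 17.7% lower) and 4 with the hybridization controls (4.91% higher, 17.7% lower). Fewer members are above a higher floor, and the cause of the other changes was not tested. Scaling to the 9 hybridization controls moved the median log2 ratio between adult and neonatal testis, taken over genes that exceed the floor in each, from -0.50 to 0.64 and turned 10.7% of genes higher and 10.3% lower into 20.4% and 2.69%. Signals near the floor limit what can be said of Nanog, Sox2, Lin28a and Dppa2. The blood list gave no median without probe sets of the _s_at, _x_at and _a_at types.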
